A study of Homo sapiens with 2 samples.

Results

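Keratins are the intermediate filament proteins of epithelial cells, and 9 keratin genes were sought by symbol on expression arrays of the human gastric cancer cell line NUGC4. The genes fall into the simple-epithelial keratins KRT7, KRT8, KRT18, KRT19, KRT20 and KRT23 and the stratified-type keratins KRT15, KRT17 and KRT80. Of these 9, 5 had a named transcript cluster, the group of probes by which the array reads a gene. They were KRT7, KRT8, KRT18, KRT19 and KRT80, each with 1 cluster, among 14526 named genes in all. KRT15, KRT17, KRT20 and KRT23 were not analysed here, so that KRT80 alone stood for the stratified type.

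The study compared NUGC4 cells given an siRNA against ANO5 (labelled Anoctamin5-Si) with NUGC4 cells given a control siRNA (labelled Negative-Control), and by its title concerns anoctamin 5 and the cell cycle. Both siRNAs were used at 20 nmol/l, and cells were transfected 24 h after seeding with a lipid reagent and grown in serum-containing medium. Each group was 1 array, of 1 cell line and 1 siRNA sequence against ANO5. No spread between replicates, error or p-value can therefore be given, and every difference compares these 2 RNA samples only. A bulk array gives the average over a culture, so that fewer cells making a transcript and less of it per cell cannot be told apart.

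Keratin filaments are built from obligate pairs of an acidic type I and a basic to neutral type II keratin. In simple, single-layered epithelia such as the lining of the stomach and gut the founding pair is KRT8 (type II) with KRT18 (type I). KRT7 is a further type II partner typical of ductal and glandular linings, KRT19 is a short type I keratin that can also pair with KRT8, and KRT20 marks differentiated gut epithelium. Stratified epithelia use other pairs, and KRT80 is a type II keratin described in many, mainly stratified, epithelia.

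The ANO5 transcript was lower in the cells given its siRNA, at a log2 signal of 3.67 with ANO5 siRNA and 6.83 with control siRNA. The value with ANO5 siRNA was at or above 4.68% of clusters, so background may limit the size of this difference. The value with control siRNA was below the median of all clusters on that array, 7.69. All differences below are ANO5 siRNA minus control siRNA on the deposited log2 scale, and a gene is counted as higher or lower where they differ by 1.5-fold or more (0.58 on the log2 scale). The measured range is the 9735 genes that reached the 33rd percentile of the named genes by their mean of both arrays, a log2 signal of 6.05. The epithelial identity genes EPCAM, a surface adhesion molecule, and CDH1, E-cadherin, had log2 signals of 17.04 and 15.21 with ANO5 siRNA, against 16.63 and 14.60 with control siRNA.

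Of the 4 simple-epithelial keratins, KRT8, KRT18 and KRT19 gave strong signals in both cultures, and KRT7 gave weaker ones. KRT8 had a log2 signal of 17.37 with ANO5 siRNA and 17.06 with control siRNA. On the ANO5 siRNA array 16 of the 17345 clusters were brighter than KRT8, and on the control array 25 were. KRT18, its type I partner, had log2 signals of 15.78 with ANO5 siRNA and 15.97 with control siRNA, with 160 clusters brighter on the ANO5 siRNA array and 139 on the control array. The founding pair thus stood near the top of both arrays.

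KRT19 had a log2 signal of 16.26 with ANO5 siRNA, against 15.24 with control siRNA. KRT7 had a log2 signal of 13.76 with ANO5 siRNA, against 11.64 with control siRNA. KRT7 was the dimmest of the 4 simple-epithelial keratins on either array, at or above 95.3% of clusters with ANO5 siRNA and 85.1% with control siRNA. KRT80 had a log2 signal of 9.71 with ANO5 siRNA and 11.07 with control siRNA, at or above 68.6% of clusters with ANO5 siRNA and 80.6% with control siRNA. Probe groups differ in how strongly they bind, so these levels place each gene on its array and do not give the ratio of one transcript to another.

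**Figure D1:**
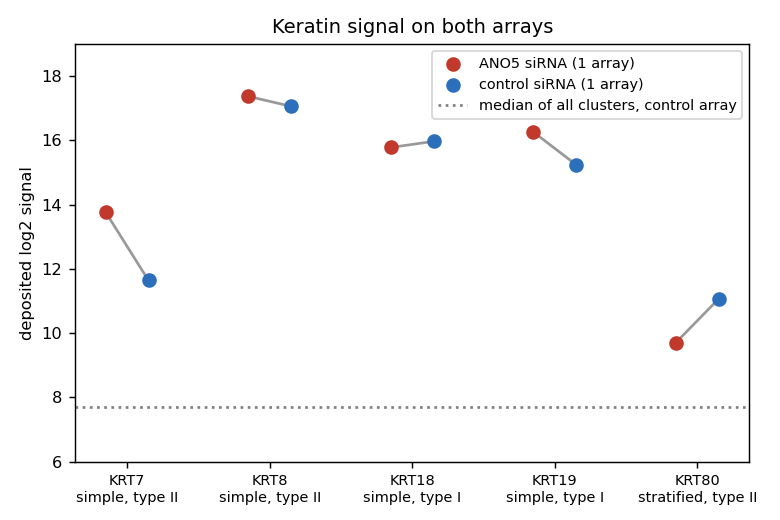
Deposited log2 signal (vertical axis) of the 5 keratin genes on the ANO5 siRNA array (red, left of each pair) and the control siRNA array (blue, right), with no error bars because each group is 1 array. KRT7 and KRT19 were higher with ANO5 siRNA and KRT80 lower, while KRT8 and KRT18 differed by 0.31 and -0.19.

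The order of signals was KRT8, KRT19, KRT18, KRT7 and KRT80 with ANO5 siRNA, and KRT8, KRT18, KRT19, KRT7 and KRT80 with control siRNA. KRT18 and KRT19 thus changed places, and the other positions were kept. With no replicates it cannot be said which neighbours in this order differ beyond the spread between cultures.

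KRT7 was 4.35-fold higher with ANO5 siRNA, a log2 difference of 2.12. Its difference was at or above that of 98.7% of measured genes, and it was the largest of the 5 keratins in either direction. KRT19 was 2.03-fold higher (1.02), at or above 89.5% of measured genes. KRT80 was 2.57-fold lower (-1.36), and its difference was at or above that of 7.19% of measured genes. KRT8 and KRT18 lay within 1.5-fold, at log2 differences of 0.31 and -0.19, and 66.4% and 78.4% of measured genes differed by as much in size.

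By count, 2 of the 5 keratins were higher by 1.5-fold or more, where 23.2% of all measured genes were, and 1 of 5 was lower, where 20.1% were. At 2-fold or more the members counted were the same, KRT7 and KRT19 higher and KRT80 lower, beside 11.2% of measured genes higher and 11.3% lower. With 5 genes these counts are too small to be set apart from the background. At 4-fold or more KRT7 was the single member, beside 1.61% of measured genes higher and 3.28% lower.

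Of the 210 measured genes with a mean log2 signal of at least 15, among them KRT8, KRT18 and KRT19, 11.0% were higher and 9.52% lower by 1.5-fold, and 3.81% were higher and 3.81% lower by 2-fold. KRT19 was 1 of the 8 bright genes that were higher by 2-fold. Whether the scale is compressed near the top of these arrays, where the brightest clusters read 18.15 with ANO5 siRNA and 17.95 with control siRNA, was not tested.

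**Figure D2:**
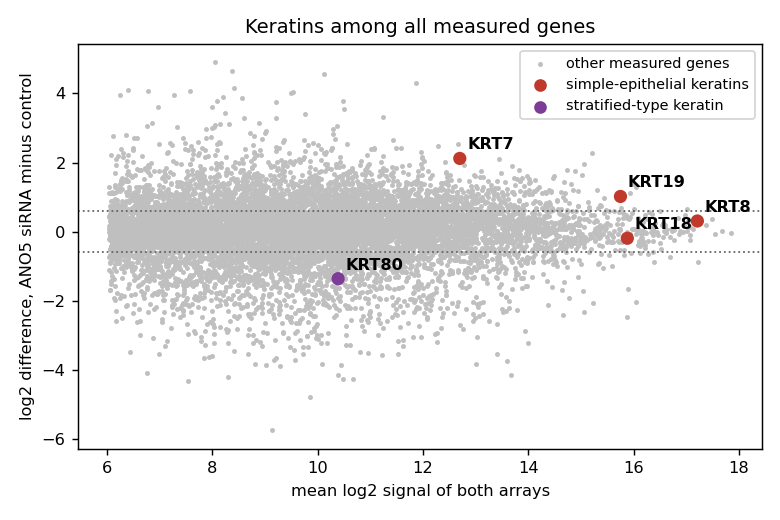
Log2 difference, ANO5 siRNA minus control siRNA (vertical axis), against the mean log2 signal of both arrays (horizontal axis) for the 9735 measured genes (grey), with the 4 simple-epithelial keratins in red and KRT80 in purple. Dotted lines mark 1.5-fold. KRT7 at 2.12 was at or above 98.7% of all measured genes, and KRT8 and KRT18 lie between the lines.

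Set against each other by class, the simple-epithelial keratins had a median difference of 0.67 (KRT7, KRT8, KRT18 and KRT19, from -0.19 to 2.12) and the stratified-type KRT80 one of -1.36. The median over all measured genes was 0.07. The classes thus differed by 2.03 on the log2 scale, none of the 4 simple-epithelial genes had as low a difference as KRT80, and this rests on 1 stratified-type gene. On each array every simple-epithelial keratin was brighter than KRT80. The median log2 signal of the simple class was 16.02 with ANO5 siRNA and 15.61 with control siRNA. KRT7, the simple-epithelial keratin nearest to KRT80 in signal, stood 4.05 above it on the log2 scale with ANO5 siRNA and 0.57 above it with control siRNA.

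By filament type the members did not move one way. The 3 type II genes had differences of 2.12 (KRT7), 0.31 (KRT8) and -1.36 (KRT80), with a median of 0.31. The type I genes had differences of 1.02 (KRT19) and -0.19 (KRT18). The log2 signal of KRT8 minus that of its partner KRT18 was 1.59 with ANO5 siRNA and 1.09 with control siRNA, a shift of 0.50. KRT8 and KRT18 have many processed pseudogenes, of which the RefSeq table lists 52 and 68 by symbol, against 5 for KRT19 and 0 for KRT7 and KRT80. Whether probes of KRT8 and KRT18 also read such copies was not tested.

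The table named 32 other keratin genes, the keratins of skin, hair and other stratified epithelia among them. All 32 were dimmer than KRT80 on both arrays, with log2 signals from 3.01 to 7.63 with ANO5 siRNA and from 3.18 to 7.94 with control siRNA. Of these, 4 were in the measured range. Of all 32, 0 were higher and 1 lower by 1.5-fold, beside 18.6% higher and 16.6% lower of all named genes. Nothing is read from this count, since most of the 32 lay below the measured range. KRT16, a type I keratin of wounded and hyperproliferative epidermis, had a log2 signal of 7.63 with ANO5 siRNA and 7.94 with control siRNA. KRT76, a keratin of oral epithelium, differed by 0.01. KRT78 had log2 signals of 6.36 with ANO5 siRNA and 5.85 with control siRNA. KRT35, a hair keratin, had 6.24 with ANO5 siRNA and 5.95 with control siRNA. KRT78 and KRT35 reached the measured range only through their values with ANO5 siRNA, so no difference is given for them. KRT16 shares much of its sequence with KRT14 and KRT17, so its probes may read more than 1 gene.

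The remaining 28 keratins lay below the measured range, with a median log2 signal of 4.29 with ANO5 siRNA and 4.12 with control siRNA. KRT79 was the 1 of these 28 to pass 1.5-fold, at 3.35 with ANO5 siRNA and 4.36 with control siRNA. Of all named genes, 18.6% were higher and 16.6% lower by 1.5-fold, and nothing is read from the count at signals this low. For scale, the 47 named KRTAP genes, which encode keratin-associated proteins of hair, had a median log2 signal of 4.58 with ANO5 siRNA and 4.69 with control siRNA. No detection call was used, so signals this low cannot be told from background, and no likeness between these genes is read from them. The squamous markers KRT5, KRT1, KRT10, DSG3 (a desmosomal cadherin) and IVL (involucrin) were among the dim genes, at 3.48 to 4.36 with ANO5 siRNA and 3.26 to 4.57 with control siRNA.

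**Figure D3:**
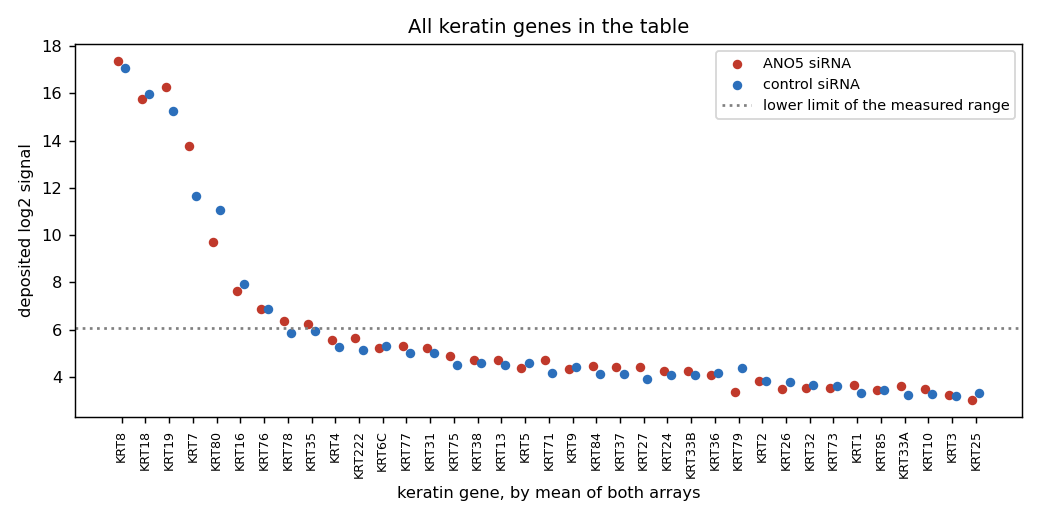
Deposited log2 signal (vertical axis) of all 37 keratin genes named in the table, ordered by the mean of both arrays, with ANO5 siRNA in red and control siRNA in blue. The 5 keratins described first stand from 9.71 to 17.37, and the other 32 lie at or below 7.94.

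Keratin genes lie in clusters in the genome, type II genes and KRT18 on chromosome 12 and the other type I genes on chromosome 17. KRT80 and KRT7 are neighbours at one end of the chromosome 12 block and KRT8 and KRT18 at the other, in the RefSeq gene order. The neighbours KRT80 and KRT7 thus differed in opposite directions, at -1.36 and 2.12. The 15 keratins named between KRT7 and KRT8 had mean log2 signals from 3.20 to 6.86, and 2 of the 15 were in the measured range. Of the 15, 0 were higher and 1, the dim KRT79, lower by 1.5-fold, where 18.6% of all named genes were higher and 16.6% lower. Nothing is read from this count, since most of the 15 lay near the bottom of the scale. KRT8 and KRT18 have overlapping gene records there, and their differences were 0.31 and -0.19.

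The genes just outside the blocks were looked at after their values were seen, and 7 of 9 non-keratin neighbours were in the measured range. Of the 9, 2 were higher and 1 lower by 1.5-fold, beside 18.6% higher and 16.6% lower of all named genes. A count of 9 genes is too small to be set apart from these shares. Beside KRT80, ATG101, an autophagy factor, was 2.01-fold higher and NR4A1, a nuclear receptor induced early by growth signals, 2.35-fold lower. Beside KRT18, EIF4B, a translation initiation factor, differed by 0.06, and SPRYD3 was 4.08-fold higher. On chromosome 17, the named keratins nearest to KRT19 were KRT13, at 4.72 with ANO5 siRNA and 4.48 with control siRNA, and KRT9, at 4.33 with ANO5 siRNA and 4.41 with control siRNA. The non-keratin neighbours there, EIF1, GAST and HAP1, differed by 0.11, -0.11 and -0.07.

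**Figure D4:**
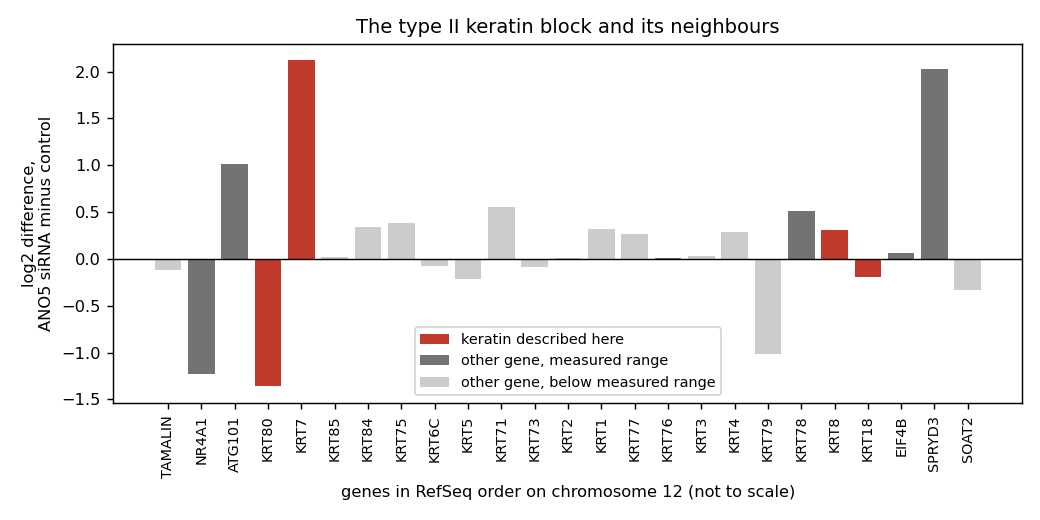
Log2 difference, ANO5 siRNA minus control siRNA (vertical axis), of protein-coding genes with a named cluster, in RefSeq order along chromosome 12 and not to scale, from 3 genes before KRT80 to 3 after KRT18. Red bars are the keratins described here, dark grey other genes of the measured range and light grey genes below it; KRT80 (-1.36) and KRT7 (2.12) stand side by side.

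Keratin filaments are tied to cell junctions by linker proteins of the plakin, plakoglobin and plakophilin families. Of 10 such genes, all in the table, 2 were higher and 0 lower by 1.5-fold, beside 18.6% higher and 16.6% lower of all named genes. Their median difference was 0.22 beside 0.03 over all named genes, 0.35 for the 9 in the measured range and 0.48 for those at or above the 50th percentile of mean signal. PPL, periplakin, was 3.97-fold higher, with a log2 signal of 9.06 with ANO5 siRNA and 7.07 with control siRNA. DSP, desmoplakin, which anchors keratins at desmosomes, was 2.19-fold higher, at 14.91 with ANO5 siRNA and 13.78 with control siRNA. The other 8 lay within 1.5-fold, and the share that was higher is near that of all genes.

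Of 12 measured genes for proteins that bind, modify or cleave keratins, 3 were higher and 2 lower, near the shares of all measured genes (23.2% higher and 20.1% lower). Their median was -0.01, and 0.33 with the filter at the 50th percentile. DNAJB6, a co-chaperone that binds KRT18, was 1.58-fold higher, HSPB1, a small heat shock protein, 1.54-fold higher and PRKCE, a kinase that phosphorylates KRT8 and KRT18, also 1.54-fold higher. PNN, pinin, a nuclear and desmosome-associated protein, was 2.48-fold lower and TGM2, a crosslinking transglutaminase, 1.97-fold lower. The last value rests on a log2 signal of 6.40 with ANO5 siRNA and 7.38 with control siRNA.

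Of 17 transcription factors of epithelial identity in the table, 4 were higher and 2 lower by 1.5-fold, beside 18.6% higher and 16.6% lower of all named genes. Their median was 0.37, and 0.47 for the 15 in the measured range. GRHL3, a grainyhead factor of surface epithelia and barrier formation, was 12.1-fold higher, at a log2 signal of 9.80 with ANO5 siRNA and 6.20 with control siRNA. GRHL1, of the same family, had log2 signals of 7.50 with ANO5 siRNA and 5.49 with control siRNA. The control values of both were low, so background may limit the fold of GRHL3. GRHL1 reached the measured range only through its value with ANO5 siRNA, so no fold is given for it. The median of 0.47 includes GRHL1. TFAP2C was 3.84-fold higher, whereas TFAP2A, of the same AP-2 family, was 2.53-fold lower and FOXA2, a factor of gut endoderm, 1.88-fold lower.

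Genes of squamous differentiation were mostly dim. Of the 15 in the table, 4 were higher and 1 lower by 1.5-fold, beside 18.6% higher and 16.6% lower of all named genes, and the median was 0.06. SPRR1A and SPRR3, both precursors of the cornified envelope, had log2 signals of 9.61 and 7.31 with ANO5 siRNA, against 5.55 and 5.42 with control siRNA. Both control values lay below the measured range, which these genes reached only through the ANO5 siRNA array, so no fold and no count over the 4 measured members is given. LORICRIN, another envelope protein, was the 1 lower gene, at 3.89 with ANO5 siRNA and 5.05 with control siRNA, both near the bottom of the scale. KRT80, the stratified-type keratin, was lower in the same comparison, and a link between KRT80 and these genes was not tested.

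Of intermediate filament genes other than keratins, 3 of the 11 in the table were in the measured range. Of the 11, 0 were higher and 2 lower by 1.5-fold, beside 18.6% higher and 16.6% lower of all named genes. The nuclear lamin gene LMNB1 was 19.2-fold lower, at 8.35 with ANO5 siRNA and 12.61 with control siRNA, while LMNA differed by 0.05 and SYNM by 0.06. The other lower gene, BFSP1, lay below the measured range, at 5.64 with ANO5 siRNA and 6.30 with control siRNA. The filament genes of muscle and nerve, DES, GFAP, PRPH, NEFL and NEFH, were below the measured range and within 1.5-fold.

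**Figure D5:**
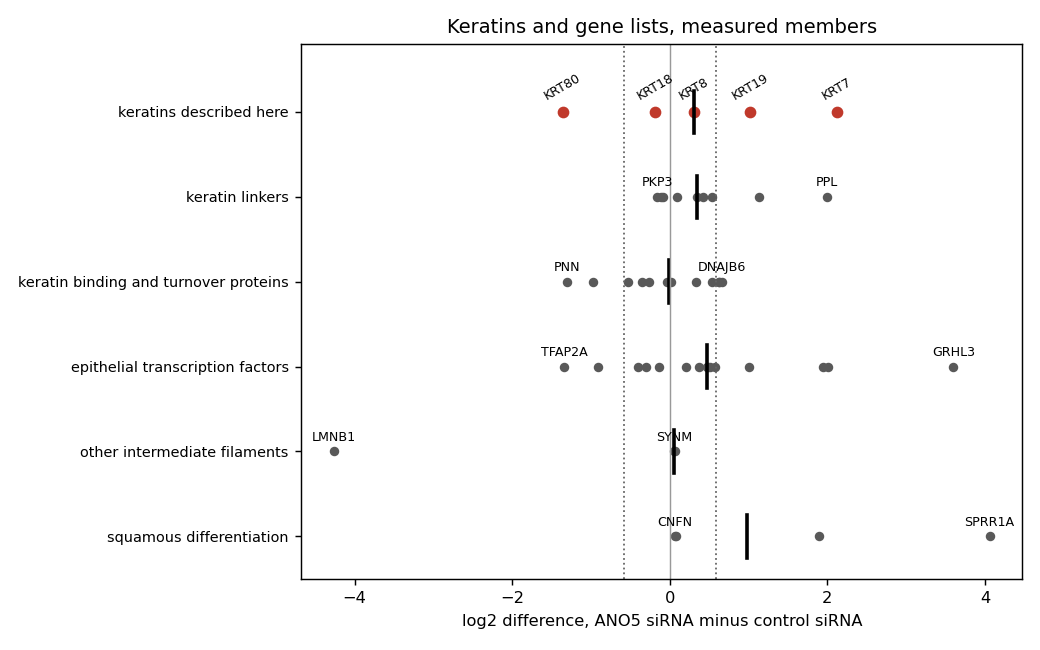
Log2 difference, ANO5 siRNA minus control siRNA (horizontal axis), of the 5 keratins (red) and of the measured members of 5 gene lists (grey), with the median of each row as a black bar and 1.5-fold as dotted lines. The keratins span -1.36 to 2.12, and PPL, GRHL3 and SPRR1A are the highest members of their lists. SPRR1A, SPRR3 and GRHL1 reached the measured range only through the ANO5 siRNA array. Nothing is read from the bar of squamous differentiation, whose median over all 15 genes in the table was 0.06.

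Of the 6 epithelium markers, all in the measured range, 1 was higher and 1 lower by 1.5-fold, near the shares of all measured genes (23.2% higher and 20.1% lower). CDH1 was 1.53-fold higher, and ESRP1, a splicing factor of epithelial cells, was 2.55-fold lower. Markers of other cell types were few in the measured range, at 1 of 4 named fibroblast markers, 2 of 6 blood markers, 1 of 2 endothelial markers and 2 of 3 muscle and nerve markers. Of these, LYZ, lysozyme, from the blood list, passed 1.5-fold and was 2.11-fold lower, at 9.80 with ANO5 siRNA and 10.88 with control siRNA. No blood cells are read from LYZ, since both cultures were of the NUGC4 line. The other markers in the measured range were COL1A2 (fibroblast), at 7.92 with ANO5 siRNA and 8.03 with control siRNA, and CD68 (blood), at 7.34 and 7.66. VWF (endothelium) stood at 7.66 and 7.14, ACTN2 (muscle) at 7.75 and 7.89 and SYP (nerve) at 6.46 and 5.95. SYP reached the measured range only through its value with ANO5 siRNA. The median of all clusters was 7.68 with ANO5 siRNA and 7.69 with control siRNA. Among the markers below the measured range, PTPRC (blood) had log2 signals of 3.49 with ANO5 siRNA and 3.68 with control siRNA. COL1A1 (fibroblast) had 4.62 with ANO5 siRNA and 4.58 with control siRNA.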

How the data were processed

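Total RNA of 2 NUGC4 cultures, labelled with biotin, was measured on 1 array per group. For 17345 transcript clusters the authors deposited a value on each array, read here as log2 signal because the values run from 2.13 to 18.15. Agilent Feature Extraction 12.0.3.1 is named in the submitters' processing notes, although the cluster identifiers have a form used by another maker's arrays, so which software made the values is uncertain. Not given in the sources used here are the probe summary, background correction, normalization, log base and genome build, and coordinates are therefore left out. No value column was left unused. The number of arrays limits the precision.

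Gene symbols came from the platform annotation (14544 clusters with 1 symbol, 2801 with none). For the 16 genes with over 1 cluster the brightest by mean was kept. Values were used as deposited, since the 75th percentiles differed by 0.02, under the limit of 0.1. No test was possible. KRT23 was classed as simple-epithelial and KRT80 as stratified-type. Named were all members, the other keratins in the measured range, ANO5, EPCAM, CDH1 and up to 3 genes each way per list past 1.5-fold. The members and lists were chosen with earlier results of these data known. No promoter or protein sequence is printed, since the sources used here held no protein sequences and no promoter of KRT7, KRT18, KRT19 or KRT80. Other scalings (loess span 0.4), pseudocount, filters, thresholds and class assignments were tried. The code was tested on simulated data. Python 3.11.15, numpy 2.4.6, pandas 2.3.3 and statsmodels 0.14.6 were used.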

Additional observations from a re-analysis of the deposited data

How the results depend on the processing

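Over all scalings and the pseudocount tried, the difference of KRT7 ranged from 2.0 to 2.13, that of KRT19 from 0.98 to 1.05, that of KRT8 from 0.20 to 0.32, that of KRT18 from -0.23 to -0.18 and that of KRT80 from -1.48 to -1.33, and each kept its direction and its side of 1.5-fold. Loess gave 2.0 for KRT7 and -1.48 for KRT80, which is also the stratified-type value, and quantile normalization gave 0.20 for KRT8; the cause was not tested. By the mean in place of the median the simple-epithelial value was 0.82 and the difference between the classes 2.17. With KRT80 counted among the simple-epithelial keratins their median was 0.31, because the fifth gene is the lowest, and no stratified-type gene then remained. At 2-fold KRT19 lies next to the threshold, which its loess value of 0.98 misses. At 4-fold the loess value of KRT7, 2.0, lies at the threshold. The counts of 2 higher and 1 lower stayed under every scaling, the filters and, on the deposited values, the 2-fold threshold. The alternatives that move or leave out KRT23 could not be run as written, since it was not analysed here, and each member has 1 cluster and passes both filters, so the choice of cluster and the filters could not test them. No paired analysis was possible because each group is 1 array. No replicate or depth measure exists, detection over background is unknown, and values near the bottom of the scale limit the folds of dim genes.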
